A study of Mus musculus with 2 samples.

Results

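The genes described here are the m6A readers Ythdf1, Ythdf2, Ythdf3, Ythdc1, Ythdc2, Igf2bp2, Hnrnpa2b1 and Hnrnpc and the m6A erasers Fto and Alkbh5. They were taken by name, 10 of the 17829 gene symbols in the deposited counts, and all 10 passed the minimum of 50 UMIs over both libraries (a UMI is a molecular tag that counts 1 captured transcript). The cells are primary colonic epithelial cells of C57BL/6 mice, sorted as live and EpCAM-positive and profiled by droplet single-cell RNA sequencing of transcript 3' ends. One library is labelled Mettl14 WT and the other Mettl14 KO. The series text places both at 2 weeks without saying from which event. The allele, the Cre driver if any, the age, the sex and the number of mice per library are not given in the sources used here. With 1 library per genotype there is no replicate on either side, so no test was possible and every interval below covers counting error only.

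N6-methyladenosine (m6A) is placed on messenger RNA in the nucleus by a complex built around METTL3 and METTL14. Readers are proteins that bind RNA through, or next to, the modified base and then steer its splicing, export, translation or decay. Erasers are oxygenases that remove the methyl group again. In the intestinal epithelium, which renews itself constantly from crypt stem cells, the pathway has been studied for its part in stem cell upkeep.

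The WT library held 4210 cells and 60205658 UMIs and the KO library 3653 cells and 37635762 UMIs, with medians of 12094 and 9119 UMIs per cell. All 7 epithelial markers were detected in both, and an Epcam UMI was present in 97.8% of WT and 99.2% of KO cells. Mettl14 itself was lower in the KO library, at 5.34 against 10.5 CPM (counts of a gene scaled to the same total of UMIs in each library). By cluster it was lower by at least 1.5-fold, with an interval below 0, in clusters 1 to 4. In cluster 0 the log2 ratio was −0.36 (−0.83 to 0.097), on 136 WT and 58 KO UMIs. In cluster 5 it was −0.39 (−1.64 to 0.81), on 16 WT and 11 KO UMIs. Both intervals included equal levels, although cluster 0 held more Mettl14 UMIs than cluster 4 (112 WT and 21 KO), which was called lower. These 3' tags may lie outside the deleted part, so the Mettl14 level does not by itself check the label. Cells with Xist UMIs alone (at least 3; 1689 WT and 1696 KO) and cells with Y-linked UMIs alone (1540 WT and 996 KO) occurred in each library, and 2 cell barcodes occurred in both libraries. In all, 33 WT cells and 0 KO cells were rich in pancreatic enzyme transcripts. Summed stromal markers stood at 119 CPM in the WT and 21.4 in the KO library, and immune markers at 65.4 and 93.5 CPM; their part in the results was not tested, but values without such cells are given where they bear on a count. The authors' 7 clusters carry no names. By their markers clusters 1 and 2 are called goblet-like, 3 cycling-like, 4 colonocyte-like and 5 enteroendocrine-like, names rebuilt here. Cluster 0 stayed unnamed because none of its 10 leading genes was a marker of stem cells, the list on which it scored highest once the enzyme-rich cells were set aside. Cluster 6, led by collagen genes, had 117 WT and 31 KO cells and was not compared.

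The cytoplasmic readers Ythdf2, at 2.49-fold, and Ythdf1, at 1.79-fold the WT level, differed most between the libraries, and both were higher in each of the 6 clusters compared. The third paralog, Ythdf3, and the nuclear reader Ythdc1 were higher by less than 1.5-fold. The eraser Fto and the nuclear reader Hnrnpc were lower by less than 1.5-fold, and Alkbh5, Igf2bp2, Ythdc2 and Hnrnpa2b1 were close to the WT level. A gene is called higher or lower here when it differed by at least 1.5-fold with a 95% interval that excludes equal levels. By that rule 2 of the 10 members were called higher and 0 lower over all cells, where 16.7% of all 13334 measured genes were called higher and 16.2% lower. Among the 6249 genes with at least 20 CPM in a library, the shares were 15.4% and 9.47%. At 2-fold, which Ythdf2 alone passed, 8.22% of all measured genes were called higher and 8.27% lower. The count of 2 in 10 is thus near the background of these libraries. The members' median log2 ratio (KO CPM over WT CPM) was 0.068, against −0.042 for all measured genes.

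**Figure D1:**
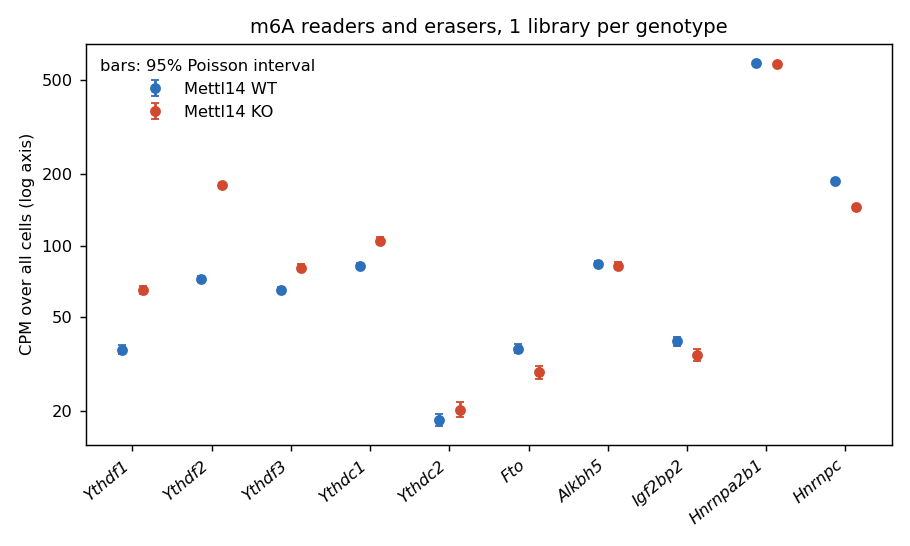
Level of each reader and eraser over all cells, in CPM on a log axis, for the WT library (blue) and the KO library (red), with exact 95% Poisson intervals as bars. Ythdf2 shows the widest gap, 72.3 against 180.1 CPM, while the points of Alkbh5 and Hnrnpa2b1 nearly coincide.

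YTHDF1, YTHDF2 and YTHDF3 are closely related cytoplasmic proteins that hold the methylated base in a YTH domain. YTHDF2 is best known for drawing the CCR4-NOT deadenylase to its targets and so for RNA decay, YTHDF1 for promoting translation, and YTHDF3 for acting together with both, although how far their roles overlap is debated. Since Ythdf1 and Ythdf2 were both higher in each cluster compared, the RefSeq sequences around their starts are shown, from 250 bases before to 50 after, 5′ to 3′ on the gene's strand in build GRCm38.p6, with 3 motifs in capitals on either strand. They are GGGCGG, known as the SP1 box; CACGTG, known as the E-box; and TGACGT, part of the site bound by CREB and ATF factors. The window of Ythdf1 is chr2:180920887-180921186, minus strand, and that of Ythdf2 is chr4:132212207-132212506, minus strand.
Ythdf1: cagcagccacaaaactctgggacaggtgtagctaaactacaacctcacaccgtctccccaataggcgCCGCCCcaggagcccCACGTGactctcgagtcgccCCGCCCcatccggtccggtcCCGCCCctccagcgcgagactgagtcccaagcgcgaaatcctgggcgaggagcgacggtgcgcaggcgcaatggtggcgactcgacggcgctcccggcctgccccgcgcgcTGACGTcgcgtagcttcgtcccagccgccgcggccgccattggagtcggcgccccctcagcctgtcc
Ythdf2: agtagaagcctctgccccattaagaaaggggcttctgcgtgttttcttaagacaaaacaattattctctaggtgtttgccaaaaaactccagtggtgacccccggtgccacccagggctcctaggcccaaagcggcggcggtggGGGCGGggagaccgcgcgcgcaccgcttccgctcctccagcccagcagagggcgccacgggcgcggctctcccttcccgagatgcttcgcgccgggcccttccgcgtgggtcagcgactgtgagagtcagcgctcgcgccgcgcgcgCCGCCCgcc
Both windows are rich in G and C, at 70.0% and 66.3% against a median of 52.7% over 32851 promoters. GGGCGG occurred 3 times in the Ythdf1 and 2 times in the Ythdf2 window and in 35.7% of all promoters. CACGTG and TGACGT each occurred 1 time in the Ythdf1 window and 0 times in that of Ythdf2, against 7.15% and 7.51% of all promoters. CCAAT (37.4% of promoters) and the NRF1 motif (4.6%) were found for Ythdf1 and not for Ythdf2, and CCGGAA (14.9%), TATAAA (13.6%) and the NF-κB motif (0.155%) for neither. All 8 motifs were searched on both strands and none of them contains another. A match in letters is a description, not a bound site.

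Ythdf2 lies on chromosome 4 at 132184912 to 132212303 (minus strand, GRCm38, GENCODE vM21), and its last exon, which carries the 3' end that this assay tags, spans 132184912 to 132186947. No annotated gene overlaps it. The WT library held 4355 Ythdf2 UMIs, or 72.3 CPM (interval 70.2 to 74.5), and the KO library 6779 UMIs from fewer cells, or 180.1 CPM (175.9 to 184.5). The log2 ratio was 1.32 (1.26 to 1.37), a value above that of 95.2% of the measured genes. The intervals of the libraries did not overlap in any of the 6 clusters compared. In cluster 0, Ythdf2 stood at 72.7 CPM in the WT and 200.2 CPM in the KO library, a log2 ratio of 1.46 (1.34 to 1.58). The goblet-like clusters 1 and 2 had 58.0 and 58.3 CPM in the WT and 133 and 161 CPM in the KO library. Cycling-like cells stood at 86.4 against 213 CPM, colonocyte-like cells at 75.0 against 184 and enteroendocrine-like cells at 75.0 against 198. The lowest KO cluster thus lay above the highest WT cluster. The ratios ran from 1.20 (1.05 to 1.35) in cluster 1 to 1.47 (1.32 to 1.62) in cluster 2, and the 6 intervals all overlapped. Cluster 6 rests on 39 WT and 14 KO UMIs and gave 0.93 (−0.062 to 1.85).

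Ythdf1 lies on chromosome 2 at 180904377 to 180920949, on the minus strand, with its last exon at 180904377 to 180905668 and no overlapping gene. It had 2183 UMIs in the WT library, 36.3 CPM (34.8 to 37.8), and 2444 in the KO library, 64.9 CPM (62.4 to 67.6), for a log2 ratio of 0.84 (0.76 to 0.92). By cluster the WT level stayed between 31.8 CPM in cluster 4 and 41.3 CPM in cluster 3. The KO level ranged from 51.4 CPM in cluster 4 to 80.7 CPM in cluster 5, so that here too the ranges of the libraries did not overlap. The ratio was lowest in colonocyte-like cells, at 0.69 (0.45 to 0.93), and highest in enteroendocrine-like cells, at 0.98 (0.47 to 1.49), with overlapping intervals throughout. Ythdf1 and Ythdf2 were called higher in each of the 6 clusters, a pattern shown by 356 of the 6076 genes measured in all of them (5.86%), while 115 (1.89%) were called lower in each. Measured here means at least 50 UMIs over both libraries in each cluster. A gene near that minimum can miss a call through counting error alone, so these shares also depend on depth. Between the pair, the log2 ratio of Ythdf2 exceeded that of Ythdf1 by 0.48 (0.38 to 0.58, from counting error).

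**Figure D2:**
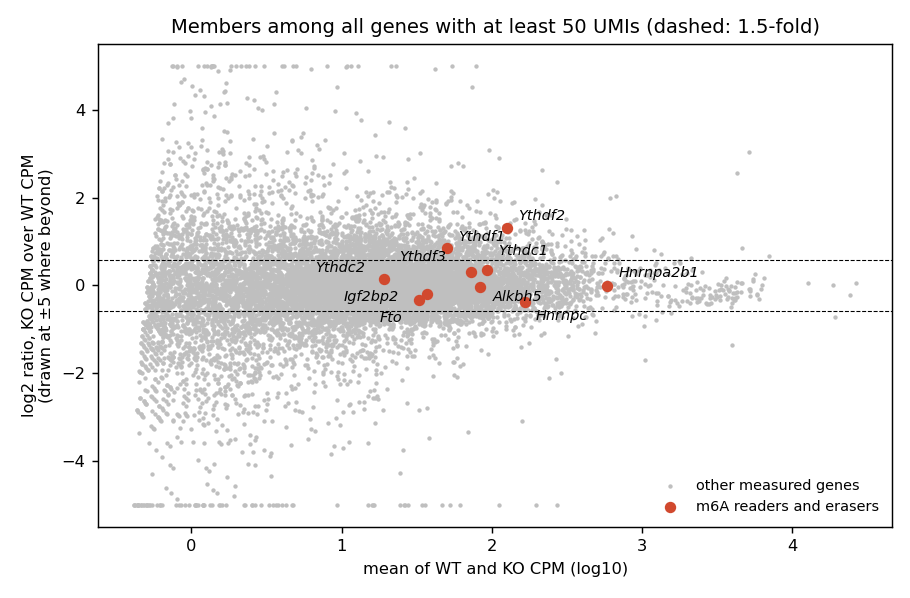
Log2 ratio of KO over WT CPM against the mean CPM (log10) for all 13334 measured genes in grey and the 10 readers and erasers in red, with dashed lines at 1.5-fold. Ythdf2 and Ythdf1 lie above the upper line and the other 8 members between the lines.

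Ythdf3 (chromosome 3, 16183212 to 16217037, plus strand) stood at 64.8 CPM (62.8 to 66.8) in the WT and 80.5 CPM (77.7 to 83.4) in the KO library. Its log2 ratio of 0.31 (0.24 to 0.38) lay below the 1.5-fold line. In 5 of 6 clusters the interval lay above 0, with a largest ratio of 0.48 (0.30 to 0.65) in cluster 2. In enteroendocrine-like cells it was −0.022 (−0.46 to 0.41), on 97 WT and 86 KO UMIs. The make-up of the summed YTHDF transcripts differed between the libraries. Together the 3 genes held 173 CPM in the WT and 326 CPM in the KO library, a log2 ratio of 0.91 (0.87 to 0.95). Ythdf2 gave 41.7% of these UMIs in the WT (exact binomial interval 40.8 to 42.7) and 55.3% in the KO library (54.4 to 56.2). The share of Ythdf3 went from 37.4% (36.4 to 38.3) to 24.7% (24.0 to 25.5), while that of Ythdf1 was 20.9% and 19.9%. A larger Ythdf2 share in the KO library was seen in each of the 6 clusters, with non-overlapping intervals, for example 36.2% in the WT and 48.9% in the KO library in cluster 1 and 42.8% and 59.04% in cluster 0. Shares compare the libraries for 1 gene. They do not rank the 3 proteins, since capture differs between transcripts.

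The YTHDC readers had smaller ratios than Ythdf1 and Ythdf2. YTHDC1 is the nuclear YTH reader, known for splicing and export of methylated RNA, and YTHDC2 is a mainly cytoplasmic RNA helicase best studied in meiosis. Ythdc1 (chromosome 5, 86804221 to 86836659, plus strand) had 81.8 CPM (79.6 to 84.2) in the WT and 105 CPM (102 to 108) in the KO library, a log2 ratio of 0.36 (0.30 to 0.42). It was above 0 in all 6 clusters, from 0.22 (−0.12 to 0.57) in cluster 5 to 0.45 (0.35 to 0.56) in cluster 3, and was called in none. The annotated gene Gm43055 overlaps its locus but not its last exon. Ythdc2 (chromosome 18, 44827746 to 44889724, plus strand) had the fewest UMIs of the members, with 18.2 CPM (17.1 to 19.3) in the WT and 20.2 CPM (18.8 to 21.7) in the KO library. Its log2 ratio was 0.15 (0.016 to 0.29). By cluster it stood above 0 in 4 and below 0 in 2, and the interval excluded 0 only in cluster 3, at 0.30 (0.048 to 0.55).

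The erasers did not move alike. FTO removes the methyl group from m6A and from the related cap-adjacent base, and ALKBH5 is the other known m6A demethylase. Fto (chromosome 8, 91313525 to 91668439, plus strand) stood at 36.7 CPM (35.1 to 38.2) in the WT and 29.0 CPM (27.3 to 30.8) in the KO library. The log2 ratio of −0.34 (−0.44 to −0.23) was short of 1.5-fold, and 28.6% of the measured genes had a lower ratio. For Fto it was below 0 in all 6 clusters, with intervals below 0 in 5. The lowest value was −0.52 (−0.85 to −0.20) in colonocyte-like cells. In the annotation 8 genes overlap the long Fto locus, none of them over its last exon. Alkbh5 (chromosome 11, 60536381 to 60558512, plus strand) had 83.9 CPM (81.6 to 86.3) in the WT and 82.2 CPM (79.3 to 85.1) in the KO library, a log2 ratio of −0.030 (−0.095 to 0.035). Of the summed eraser UMIs, Fto made up 30.4% (29.3 to 31.5) in the WT and 26.1% (24.8 to 27.5) in the KO library.

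Among the readers that lack a YTH domain, IGF2BP2 is known to stabilise target RNAs. HNRNPA2B1 takes part in nuclear RNA processing, including that of microRNA precursors, and HNRNPC binds uridine tracts that the modification can expose. Igf2bp2 (chromosome 16, 22059009 to 22163299, minus strand) stood at 39.3 CPM (37.7 to 40.9) in the WT and 34.4 CPM (32.6 to 36.3) in the KO library. The log2 ratio was −0.19 (−0.29 to −0.093). In clusters 3 and 0 it was −0.36 (−0.54 to −0.18) and −0.28 (−0.49 to −0.080), whereas cluster 2 gave 0.14 (−0.12 to 0.40), and the intervals of clusters 2 and 3 did not overlap. Hnrnpa2b1 (chromosome 6, 51460932 to 51469894, minus strand) had the most UMIs of the members, with 591 CPM (585 to 598) in the WT and 585 CPM (577 to 593) in the KO library. Over all cells its log2 ratio was −0.016 (−0.040 to 0.0084), but the clusters differed in sign by small amounts. It was −0.18 (−0.25 to −0.12) in cluster 1 and 0.17 (0.11 to 0.24) in cluster 4, with intervals that did not overlap. The median over all genes measured in the cluster was −0.12 in cluster 1 and −0.0050 in cluster 4. Hnrnpc (chromosome 14, 52073377 to 52104028, minus strand) had 189 CPM (185 to 192) in the WT and 145 CPM (141 to 149) in the KO library, a log2 ratio of −0.38 (−0.42 to −0.33), the lowest of the 10. Of the measured genes, 26.2% had a lower ratio. The Hnrnpc ratio was below 0 in all 6 clusters. In goblet-like cluster 1 it reached −0.62 (−0.74 to −0.50), with 161 against 105 CPM, the 1 call of a lower member in any cluster. In the other goblet-like cluster it was −0.40 (−0.53 to −0.28). Under median-of-ratios scaling, which shifts every ratio of cluster 1 by 0.10, the value there was no longer called.

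**Figure D3:**
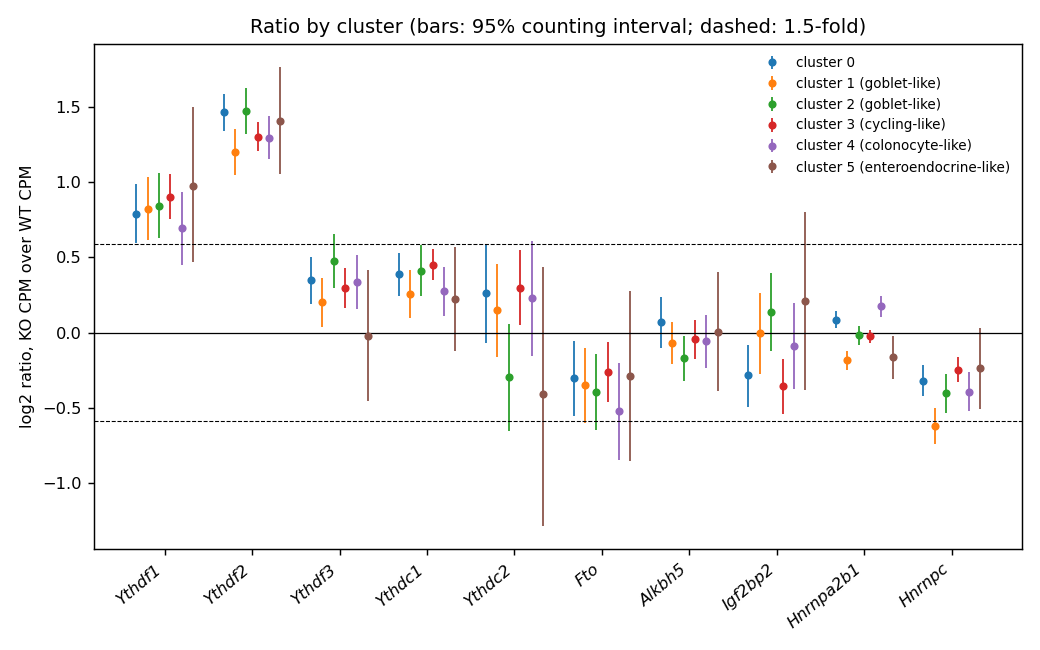
Log2 ratio of KO over WT CPM for each member in each of the 6 clusters compared, with 95% counting intervals as bars, a solid line at equal levels and dashed lines at 1.5-fold. The 12 points of Ythdf1 and Ythdf2 lie above the upper line and the points of Fto and Hnrnpc below 0.

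Taking members and clusters together, 12 of 60 values were called higher and 1 lower. All 12 were those of Ythdf1 and Ythdf2. Of all genes measured in a cluster, 13.1% (cluster 1) to 19.9% (cluster 0) were called higher and 9.76% (cluster 5) to 16.8% (cluster 1) lower. No member was called higher in 1 cluster and lower in another.

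Within a library, the ratio of the highest to the lowest cluster was at most 1.87 for any member. For Fto this widest span was seen in the KO library, from 22.4 CPM in colonocyte-like to 42.1 CPM in enteroendocrine-like cells. Alkbh5 was highest in the goblet-like clusters in both libraries, at 114 CPM in cluster 2 of the WT and 101 CPM in that of the KO library, and lowest in cluster 0, at 61.3 and 64.2 CPM. Hnrnpa2b1 peaked in cycling-like cells, at 752 CPM in the WT and 739 CPM in the KO library, and Hnrnpc did so too, at 215 and 181 CPM. In the WT library Igf2bp2 was highest in clusters 0 and 3, at 48.4 and 46.9 CPM, and lowest in cluster 1, at 27.1 CPM. Ythdf2 was highest in cycling-like cells of both libraries and lowest in cluster 1.

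Most neighbours in these orders did not differ beyond their intervals. The highest cluster stood apart from the next for 2 members in the WT library, Ythdf2 and Alkbh5, and for 1 in the KO library, Hnrnpa2b1. The highest and the lowest cluster stood apart for 8 of 10 members in each library, the exceptions being Ythdf3 and Ythdc2. The order of the 6 clusters was identical in both libraries for Fto, Alkbh5 and Hnrnpc. Log2 levels in the WT and the KO library were correlated across the 6 clusters. The Pearson correlation was 0.99 for Ythdf1, 0.90 for Ythdf2 and 0.94 for Ythdc1. It was −0.53 for Ythdf3 and −0.097 for Ythdc2, whose highest and lowest clusters had overlapping intervals in each library. WT Ythdc2 still differed between cluster 2, at 21.8 CPM (19.0 to 24.8), and cluster 0, at 15.2 CPM (13.1 to 17.4). The points of a library share its preparation and depth, so these correlations are descriptions. The clusters were defined from the same counts, and differences between clusters within a library have no test.

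**Figure D4:**
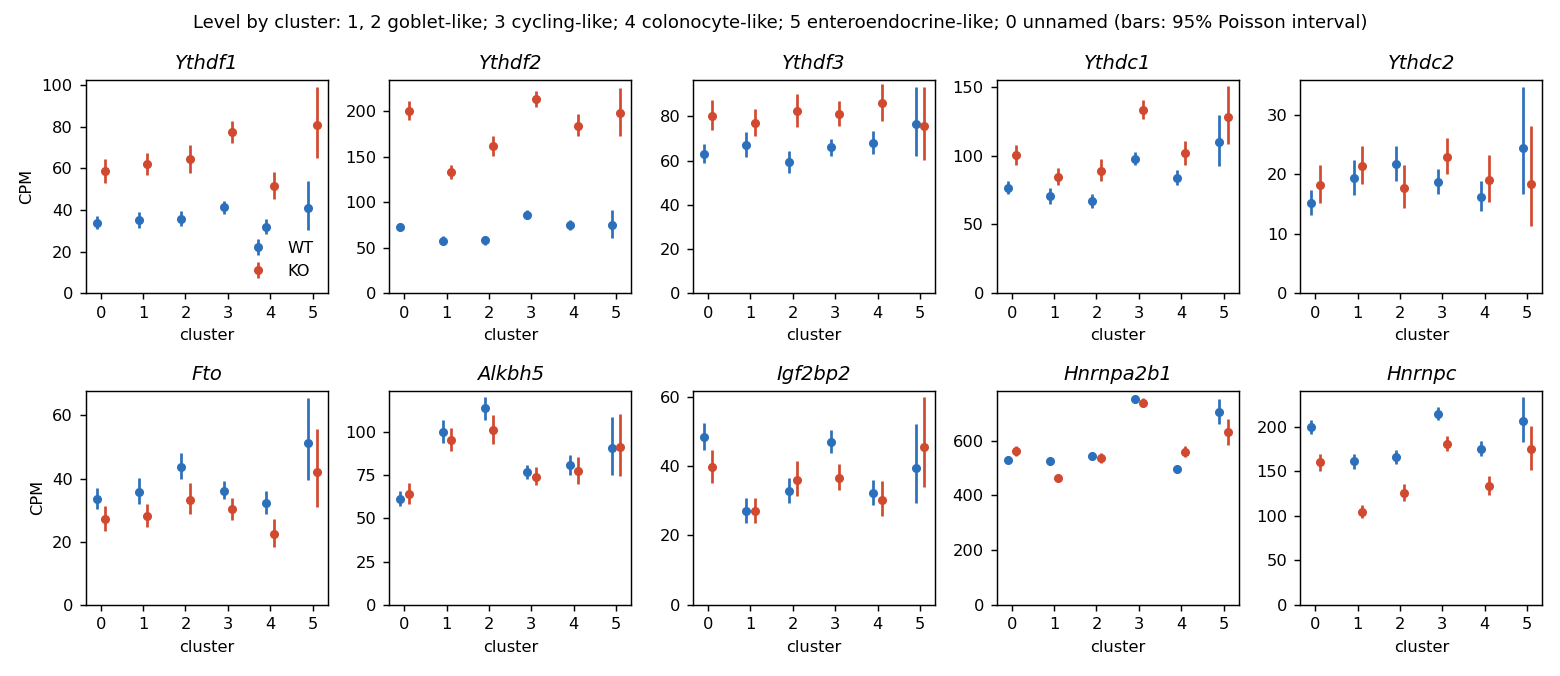
Level of each member in CPM in clusters 0 to 5, 1 panel per gene with its own axis from 0, for the WT (blue) and the KO library (red), with exact 95% Poisson intervals as bars. In the Ythdf1 and Ythdf2 panels each KO point lies above all WT points, whereas the points of Alkbh5 overlap in most clusters and share 1 order of clusters.

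To set both libraries at the same depth, every cell was thinned to 3000 UMIs, which 172 WT and 97 KO cells did not reach. At that depth 19.2% of WT cells (18.0 to 20.4) and 40.05% of KO cells (38.4 to 41.7) held a Ythdf2 UMI, while without thinning the shares were 56.7% and 74.4%. If the thinned UMIs fell on cells at random, a Poisson distribution with the same mean would give 19.2% and 40.5%, close to the shares seen. At these means, 0.213 and 0.519 UMIs per cell, the share is set mostly by the mean. Such closeness therefore cannot show how evenly the UMIs lay over the cells. The 1% of cells with the most Ythdf2 UMIs held 7.05% of its WT and 5.37% of its KO UMIs. For Ythdf1 the thinned shares were 9.58% (8.69 to 10.5) and 18.2% (17.0 to 19.5), and the Poisson values 9.74% and 18.4%. Ythdf3 was found in 16.8% and 21.7% of thinned cells, and Hnrnpc in 41.9% and 33.4%. Unthinned, the share of cells with a Ythdf3 UMI was 53.8% in the WT and 52.1% in the KO library, the reverse of the thinned order, with the WT cells being deeper. A background share is not given, because no cell type is known to lack these transcripts.

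**Figure D5:**
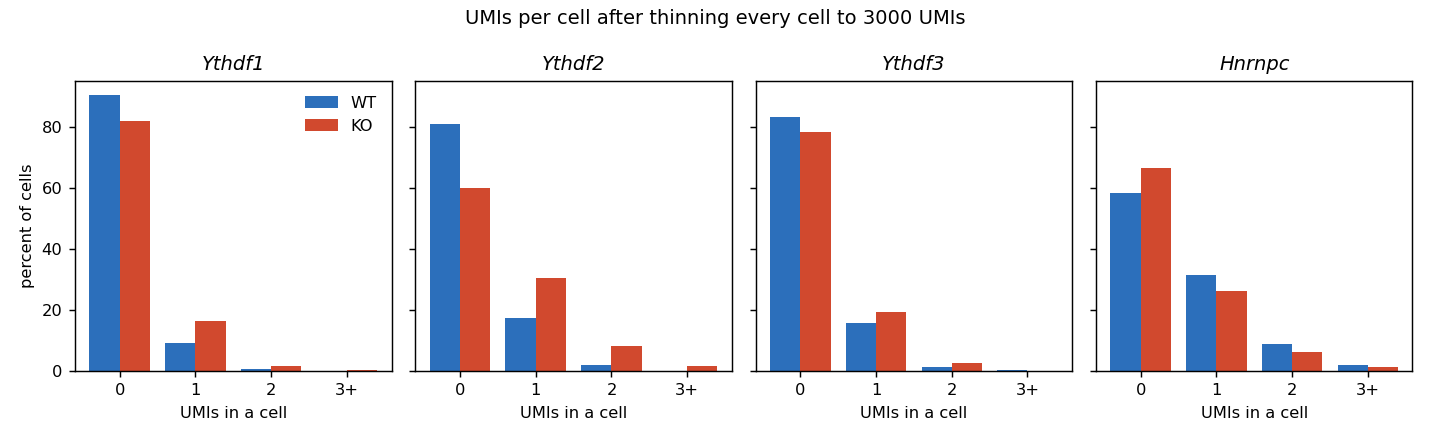
Percent of cells with 0, 1, 2 or at least 3 UMIs of Ythdf1, Ythdf2, Ythdf3 and Hnrnpc after every cell was thinned to 3000 UMIs, for 4038 WT cells (blue) and 3556 KO cells (red). For Ythdf2 the share of cells with 0 UMIs is 80.8% in the WT and 59.95% in the KO library, and the share with 2 UMIs is 1.93% and 8.07%.

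The Ythdf1 and Ythdf2 differences were also present within subsets of cells, chosen after the data were seen. In cycling-like cells with at least 10 UMIs of the 9 cycling markers (766 WT and 729 KO), the log2 ratio of Ythdf2 was 1.30 (1.19 to 1.40), and in the other cells of that cluster (152 and 161) it was 1.41 (1.07 to 1.77). Ythdf3 and Ythdc1, below 1.5-fold in the first subset, stood at 0.82 (0.38 to 1.26) and 0.83 (0.44 to 1.23) in the second, where they rest on 70 and 88 WT UMIs. In cluster 0, cells with a UMI of Ccl20, Spib or Msln (86 WT and 282 KO) gave 1.51 (1.17 to 1.86) for Ythdf2, and cells without one (1020 and 534) gave 1.45 (1.31 to 1.59). For Ythdf1 the same subsets gave 0.92 (0.39 to 1.48) and 0.75 (0.52 to 0.98). Cells with Xist UMIs alone gave 1.37 (1.29 to 1.46) for Ythdf2 and 0.90 (0.77 to 1.03) for Ythdf1. In cells with Y-linked UMIs alone these were 1.26 (1.16 to 1.36) and 0.70 (0.54 to 0.85). Leaving out cells with at least 5 stromal and immune marker UMIs, or the enzyme-rich cells, kept the count at 2 members called higher.

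Around these members, the other genes of the m6A pathway were taken from lists written with earlier results of these data known. Of 100 measured genes, each counted once, 6 were called higher and 10 lower, with a median log2 ratio of −0.26. Over all 13334 measured genes, 16.7% were called higher and 16.2% lower, with a median of −0.042. The counts of these genes, and those of the single lists below, are therefore not read as a result about the lists. When mitochondrial, ribosomal-protein and haemoglobin genes were left out of the totals, which shifts every ratio by −0.072, the counts were 6 and 16. Of 13 writer genes, 1 was called higher and 2 lower, with a median of 0.26, and 1 of those 2 was Mettl14, the targeted gene. The writer-associated RNA-binding protein gene Rbm15 was higher, at 66.8 against 28.8 CPM (1.21, 1.12 to 1.30), and the other lower gene was Mettl3, the catalytic subunit, at 7.49 against 13.3 CPM (−0.82, −1.02 to −0.63). The scaffold genes Wtap and Virma stood at 0.26 (0.18 to 0.34) and 0.43 (0.31 to 0.55), short of a call.

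Among 16 other proposed readers, 0 were called higher and 1 lower, with a median of −0.13. That gene was Rbmx, encoding the RNA-binding protein hnRNP G, with 1748 WT and 276 KO UMIs, at 29.0 and 7.33 CPM respectively, and a KO over WT log2 ratio of −1.99 (−2.17 to −1.80). Rbmx belongs to a family with close copies, so its count may be uncertain, which was not tested. The paralogs of Igf2bp2 stood near the WT level, Igf2bp3 at 31.3 and 31.6 CPM and Igf2bp1 at 2.18 and 2.26 CPM. Fmr1, Fxr1 and Fxr2, a family of translation regulators, stood at −0.47 (−0.57 to −0.38), −0.57 (−0.67 to −0.48) and −0.31 (−0.47 to −0.16), none of them called.

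YTHDF2 acts with deadenylation and decapping factors and with other RNA decay proteins, among them subunits of the RNase P and MRP complexes. Of these partner genes 32 were measured. Here 2 were called higher and 2 lower, with a median of −0.31. The decapping enzyme gene Dcp2 (0.90, 0.81 to 1.001) and Pop1, a subunit of the RNase P and MRP complexes (0.93, 0.76 to 1.10), were higher. Rida, known as HRSP12, the adaptor between YTHDF2 and RNase P and MRP in human cells, was lower at 24.3 against 44.4 CPM (−0.87, −0.98 to −0.76), as was the decapping factor gene Patl1 (−0.69, −0.89 to −0.49). Of 9 partners of YTHDC1 and YTHDC2, 1 was called, the RNA export receptor gene Nxf1, at 182 against 115 CPM (0.67, 0.62 to 0.71), and the median was −0.22. Of 7 AlkB family genes other than Alkbh5, 1 was called, Alkbh4, higher at 0.75 (0.50 to 0.997), and the median was 0.25. Among 24 other hnRNP and related genes 1 was called higher, Hnrnpa0 (0.70, 0.66 to 0.73), and 5 lower, with a median of −0.40. Led by Hnrnph1 (−1.03, −1.08 to −0.97), the 5 also held Hnrnpll, Pcbp2, Raly and Hnrnpl, and 22 of the 24 ratios were below 0. Of all measured genes 53.3% were below 0 and 16.2% were called lower, or 50.8% and 9.47% of those with at least 20 CPM in a library.

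By a rule of likeness, the 3 genes with the highest Pearson correlation of log2(CPM + 1) over 12 points (6 clusters in 2 libraries) were listed among 6249 genes with at least 20 CPM in a library. For Ythdf2 these were Cdk9 (r = 0.99), Sap30bp (0.99) and Riox1 (0.99), which stood at log2 ratios of 1.02, 1.73 and 1.56. For Ythdf1 they were Faap100 (0.98), Trir (0.98) and Tuba4a (0.97). Ythdf3 was most like Phkg2 (0.95), Tmem102 (0.94) and Nufip2 (0.93), and Hnrnpc most like Gata6 (0.98), Ephb3 (0.97) and U2af2 (0.97). The 12 points fall into 2 libraries of 6, so a gene that differs between the libraries as Ythdf2 does will correlate with it for that reason. Within the WT library alone, over 6 clusters, Ythdf2 and Ythdf1 correlated at 0.40, against 0.91 over all 12 points.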

How the data were processed

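The authors deposited UMI counts per gene and cell, whole numbers for 17829 gene symbols in 7863 cells, with a table of each cell's library and cluster number. The submitters' processing notes name bcl2fastq and Cell Ranger with mm10; versions, cell filter and clustering method are not given in the sources used here. CPM is the sum of a gene's UMIs over all cells of 1 library, or over those in 1 of its clusters, scaled to the total of the same cells. Intervals at 95% are exact conditional binomial for ratios, exact Poisson for CPM and exact Clopper-Pearson for shares; all cover counting error only, and cells and genes are not replicates, so no p-value is given. Genes needed 50 UMIs over both libraries and clusters 50 cells in each. The ratio script was tested on simulated counts. No doublets were removed. Both Xist and Y-linked UMIs occurred in 437 WT and 304 KO cells. Restriction to cells with Xist UMIs alone, or Y-linked UMIs alone, was an alternative.

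Members, lists and tests were chosen with earlier results of these data known. Named genes were all 10 members, up to 4 genes per list by the interval bound furthest from 0, those called, and the 3 most alike for 4 members; Wtap, Virma, the Igf2bp paralogs and the Fmr1 family were named after their values were seen. A cluster was named by its best-scoring marker list (mean z score), where at least 3 of that list's markers were detected and at least 1 was among its 10 leading genes. Enzyme-rich cells (11 pancreatic enzyme genes at 1% of UMIs or more) were set aside for naming, a rule added after the data were seen. Alternatives covered scaling, cells kept, cell and cluster weights, depth and fold. Positions come from GENCODE vM21 (GRCm38). With blastn 2.17.0, the last 500 bases of each member's transcript matched no other annotated gene at 95% identity over 90 bases. Analyses used Python 3.11.15, numpy 2.4.6, scipy 1.17.1 and pandas 2.3.3.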

Additional observations from a re-analysis of the deposited data

How the results depend on the processing

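Over all cells, 2 members were called higher and 0 lower under each alternative except the 2-fold rule, which left 1, Ythdf2. Across 13 other settings the log2 ratio of Ythdf2 ranged from 1.24 to 1.42 and that of Ythdf1 from 0.70 to 0.99, and no called member changed sign. Fto (−0.41 to −0.17) and Hnrnpc (−0.45 to −0.31) stayed below 0, and Hnrnpa2b1 (−0.087 to 0.097) and Alkbh5 (−0.10 to 0.022) lay on both sides of it. The Fto value of −0.17, from cells with Y-linked UMIs alone, had an interval of −0.36 to 0.022, which includes equal levels. Of 850 single values, 751 stayed within their interval and 99 left it. The count of lower calls by cluster, 1 as reported, was 2 without mitochondrial, ribosomal-protein and haemoglobin genes in the totals and 2 in cells with Y-linked UMIs alone, and it was 0 with median-of-ratios scaling, with CPM averaged over single cells and at 2-fold. At 2-fold the higher calls by cluster went from 12 to 6, and those of the other pathway genes from 6 higher and 10 lower to 1 and 2. The first of these scalings gave 16 lower pathway genes. With cells thinned to 3000 UMIs, the highest cluster stood apart for 0 members in the WT and 0 in the KO library, where fewer UMIs widen the intervals. No paired analysis was possible because each genotype has 1 library. Depth limits cluster 5 and Ythdc2 most, since their intervals are the widest.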

Other observations

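In the KO library, 193 cells held a Mettl14 UMI and 3460 did not, with medians of 10088 and 9080 UMIs per cell. Ythdf2 stood at 187 CPM in the cells with a Mettl14 UMI and at 179.7 CPM in those without, a log2 ratio of 0.058 (−0.089 to 0.20). For Ythdf1 the levels were 63.5 and 65.0 CPM (−0.033, −0.29 to 0.21). Both groups of KO cells lay above the WT levels of 72.3 and 36.3 CPM. A Mettl14 UMI in a KO cell does not show an intact transcript, since these 3' tags may lie outside the deleted part. In the WT library, the 565 cells with a Mettl14 UMI had 79.7 CPM of Ythdf2 and the 3645 without had 70.6 CPM (0.17, 0.068 to 0.28), and their medians of 17354 and 11751 UMIs per cell differed. A missing UMI at this depth does not show that a cell lacks the transcript.

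The 33 enzyme-rich WT cells held 20 Ythdf2 UMIs, or 46.5 CPM (28.4 to 71.9), and 182 Hnrnpa2b1 UMIs, or 424 CPM (364 to 490). Over all WT cells these levels were 72.3 and 591 CPM. Not every member was lower in the enzyme-rich cells, since Fto stood at 37.2 CPM (21.3 to 60.5) there and at 36.7 CPM over all WT cells.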
